A study of Drosophila melanogaster with 18 samples.

Results

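Ovary RNA was compared between Drosophila melanogaster females that lack emerin and females that lack both emerin and Checkpoint kinase 2 (Chk2). The members of this comparison are 7 of the 18 libraries of the series: 4 libraries of emerin mutants, in which Chk2 is present (2 from the allele combination emerin G/PI, 2 from emerin G/PK), and 3 libraries of chk2, emerin double mutants. All 7 were chosen by their genotype labels alone. The G, PK and PI alleles are null alleles of the emerin gene, annotated as Ote (Otefin), in a yw background. G carries a piggyBac transposon insertion, PK a nonsense mutation and PI an amino acid substitution. The double mutants carry the emerin alleles G and PK together with the P6 and P30 alleles of the chk2 gene, annotated as lok (loki). P6 is a P element insertion with a deletion that affects the second exon, and P30 deletes the 5′ untranslated region and the first exons. The double mutants therefore share both emerin alleles with the G/PK libraries and only one with the G/PI libraries, and each contrast was also computed against G/PK alone. Every library was made by poly(A) selection from about 100 pairs of whole ovaries of newly eclosed females, raised at room temperature according to the labels. Wild-type levels are given beside the results from 4 CS (Canton S) libraries and 3 yw libraries. A further contrast uses 2 nosgal4 libraries, with the germline driver alone, and 2 baf GLKD libraries. In baf GLKD the driver expresses a short hairpin RNA against the gene baf, and the labels give 25 °C. By the paper, the driver line carries a w allele and the hairpin line y, sc, v and sev alleles. Tests of the double mutants are given only against the emerin mutants, and their place relative to wild type was described without a test. A chk2 single mutant was not analysed here.

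Emerin is a protein of the nuclear lamina, the network under the inner nuclear membrane, and carries a LEM domain that binds the chromatin protein Barrier-to-autointegration factor (BAF). Chk2 is a kinase of the DNA damage checkpoint that is activated by upstream kinases of the ATM and ATR type and that acts on cell cycle regulators and on p53. In the fly ovary, germline stem cells sit beside terminal filament and cap cells, their daughters differentiate among escort cells, and the resulting cysts are wrapped by follicle cells and develop with nurse cells that supply the oocyte. The paper's stated question for the double mutant is how an active Chk2 shapes gene expression when the lamina is disturbed.

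The targeted genes were examined first. The chk2 gene lok (FBgn0019686, chromosome 2L, 20061422 to 20064381 in the BDGP6.54 annotation) was at 121 and 62.7 CPM in G/PI, 61.4 and 55.2 CPM in G/PK, and 16.0, 15.7 and 14.3 CPM in chk2, emerin (log2 fold change -2.29 ± 0.23, adjusted p = 8.4e-07). Counts-per-million (CPM) values are counts scaled to a common library total after TMM normalization, fold changes are double mutant over emerin mutant on the log2 scale with their standard error (SE), also where only a value ± SE is printed, and adjusted p are Benjamini-Hochberg values of edgeR's quasi-likelihood test over 12762 genes. All double mutant libraries lay below all emerin libraries. In the 7 wild-type libraries lok was at 194, 238 and 247 CPM (lowest, median and highest), so the emerin libraries also lay below wild type. The reads that remained in the double mutants were spread differently over the annotated lok transcripts. FBtr0081329 held 71.5% to 77.5% of the lok transcript abundance, in transcripts-per-million (TPM) units, in the 4 emerin libraries and 28.7% to 35.5% in the 3 double mutant libraries, whereas FBtr0081330 held 12.7% to 20.3% and 49.4% to 64.5%. Summed over transcripts, lok stood at 31.8 to 65.1 TPM in emerin mutants and 6.96 to 8.26 TPM in double mutants. These transcript values are estimates that divide shared reads between isoforms. The highest emerin values (77.5%, 20.3% and 65.1 TPM) came from the first G/PI library. Its transcript table summed to 12.4 times less than its column of the gene table.

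Emerin itself, Ote (FBgn0266420, chromosome 2R, 18275607 to 18277177), was at 59.0 and 32.7 CPM in G/PI, 17.9 and 11.7 CPM in G/PK, and 21.6, 23.1 and 23.1 CPM in chk2, emerin (log2 fold change -0.43 ± 0.36, adjusted p = 0.34). Wild-type libraries held 64.8, 79.8 and 85.3 CPM (lowest, median and highest). The value did not pass the test, and its direction depended on the emerin background: it was 0.61 against G/PK alone (adjusted p = 0.060) and 0.12 without the first G/PI library (adjusted p = 0.74). G/PI was above G/PK for Ote (log2 difference 1.63, adjusted p = 0.024).

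With Chk2 lost in the emerin mutant, 49.1% of the genes tested differed. Of 12762 genes tested, 2901 were higher in chk2, emerin than in emerin (22.7%) and 3366 were lower (26.4%). The called genes that were lower had a median log2 fold change of -2.24, or -2.17 with genes at 0 counts in 1 group set to their bound, and the called genes that were higher had a median of 0.95 either way. The groups did not overlap for 2802 of the called genes that were higher and 3131 of those that were lower. Over all genes tested, every double mutant library lay above every emerin library for 27.2% and below for 30.4%. The genes called higher took up 25.7% of all counts in emerin mutants and 47.6% in double mutants, and those called lower 29.4% and 8.82%. Since RNA came from whole ovaries, fewer cells of a type and less RNA per cell cannot be told apart. Over the 12762 genes the log2 fold change had a median of -0.25 with the scaling used. The median was -0.39 when libraries were scaled by total count only and -0.05 when a trend with transcript length was removed. Medians of gene lists are therefore read against -0.25, and their counts of called members against 22.7% higher and 26.4% lower.

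The contrast against the same emerin alleles gave a similar picture. Against the 2 G/PK libraries alone, 2644 genes were higher in chk2, emerin (20.7%) and 2969 were lower (23.3%). Of the 2901 genes called higher against both emerin backgrounds, 2528 were called higher against G/PK as well (87.1%), and of the 3366 called lower 2847 were (84.6%). These counts share libraries, so they describe the calls and are no independent repeat. The fold change against G/PK had the same sign for 2901 and 3361 of them. The emerin backgrounds themselves differed little at this replication: 25 genes were higher in G/PI than in G/PK and 1 was lower.

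The libraries held 18138657 to 28372959 counts. The first G/PI library stood apart from the other emerin libraries, and it lay nearer to the double mutants for several germline genes. Its deposited transcript table summed to 12.4 times less than its column of the gene table, whereas the other 6 libraries compared agreed. Outside this comparison CS 1, CS 2, yw 1, yw 2, nosgal4 1 and baf GLKD 1 had the same shortfall, by 7.42 (baf GLKD 1) to 18.9 times (CS 1). Without the first G/PI library, 2936 genes were higher and 3301 lower. The first chk2, emerin library differed more from the other 2 double mutant libraries than they did from each other (chi-square per degree of freedom 96.2 and 86.2 against 16.4), and without it the counts were 2511 and 2727. The replicate libraries are separate RNA isolates, and nothing in the labels ties a replicate number to a shared batch.

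**Figure D1:**
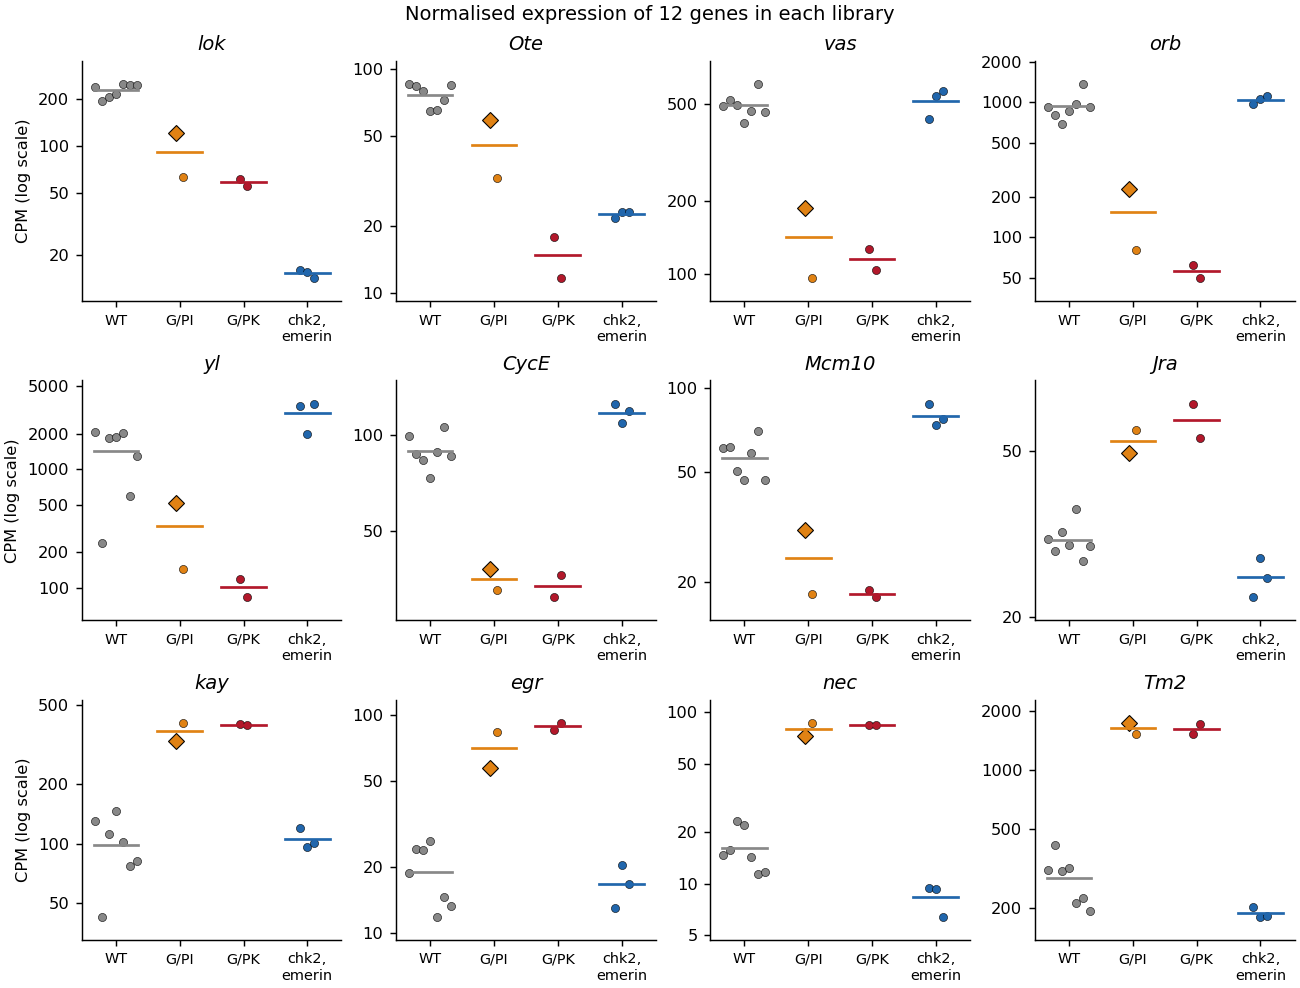
Each panel shows normalised expression (CPM, log axis) of 1 gene in every library of wild type (WT, 4 CS and 3 yw), emerin G/PI, emerin G/PK and chk2, emerin; points are libraries, bars are group means, and the diamond is the first G/PI library. lok lies between 14.3 and 16.0 CPM in the double mutants, below every other library, and the other genes except Ote separate the 3 double mutant libraries from the 4 emerin libraries.

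Markers of tissues outside the germline moved with the groups, and their part in the results below was not tested. Of 16 muscle genes tested, 14 were lower in chk2, emerin and none was higher, with a median log2 fold change of -2.84. The share lower was 87.5%, against 26.4% over all genes. Their summed level was 33791 to 39641 CPM in emerin mutants, 5540.0 to 7083 CPM in double mutants and 4352 to 9281 CPM in wild type. Tm2, a tropomyosin, was at 1728 and 1528 CPM in G/PI, 1529 and 1699 CPM in G/PK, and 203, 181 and 182 CPM in chk2, emerin (log2 fold change -3.10 ± 0.24, adjusted p = 8.3e-08). Mlc1, a myosin light chain, and Zasp66, a protein of the muscle Z disc, were lower by similar amounts (-3.15 ± 0.23 and -3.09 ± 0.22). The muscle sheath is part of the dissected ovary. In these libraries its genes separated the groups without overlap for 15 of the 16 members, all lower, against 30.4% lower without overlap over all genes.

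Hemocyte and fat body markers followed in the same direction. Of 14 hemocyte genes 9 were lower, among them the peroxidasin Pxn (-4.18 ± 0.81), the scavenger receptor Sr-CI (-5.19 ± 0.67) and the Croquemort receptor crq (-1.16 ± 0.13). Pxn was at 1243 and 839.6 CPM in G/PI, 641 and 712 CPM in G/PK, and at 59.3, 35.1 and 48.1 CPM in chk2, emerin. The summed level of the hemocyte list overlapped between the groups, at 7303 to 9351 CPM in emerin mutants and 3652 to 8796 CPM in double mutants, since its most abundant members, the collagen genes Col4a1 and vkg, did not pass the test. Of 9 fat body genes 8 were lower, including the larval serum proteins Lsp1alpha (-5.28 ± 0.79), Lsp1beta (-4.73 ± 0.78) and Lsp1gamma (-3.49 ± 0.56). The fat body sum stood at 1588 to 3551 CPM in emerin mutants and 695 to 939.6 CPM in double mutants. None of the muscle, hemocyte or fat body members was at 0 counts in all libraries of either group.

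Nervous system and male germline markers were rare. Of 6 neuronal genes 3 were lower, and Syt1, a synaptic vesicle calcium sensor, showed how 1 library can carry a fold change: it was at 720.0 and 19.4 CPM in G/PI, 20.6 and 15.0 CPM in G/PK, and at 3.86, 0.783 and 1.60 CPM in chk2, emerin. Wild-type libraries spanned 4.33 to 985 CPM. Against G/PK alone its log2 fold change was -3.08 (adjusted p = 0.26), and the call was also lost without the first G/PI library or any 1 of the double mutant libraries. nSyb, a synaptic vesicle protein, and elav, a neuronal RNA-binding protein, were lower (-2.33 and -1.13). Of 17 testis-expressed genes tested, 6 were lower against the 4 emerin libraries (35.3%, against 26.4% over all genes). The count was 1 against G/PK alone, 2 without the first G/PI library and 3 without the first double mutant library. Mst98Ca was at 5.01 CPM in the first G/PI library, at 0 to 0.298 CPM in the other emerin libraries and at 0 counts in all double mutants. Its call was lost against G/PK alone (adjusted p = 0.092).

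**Figure D2:**
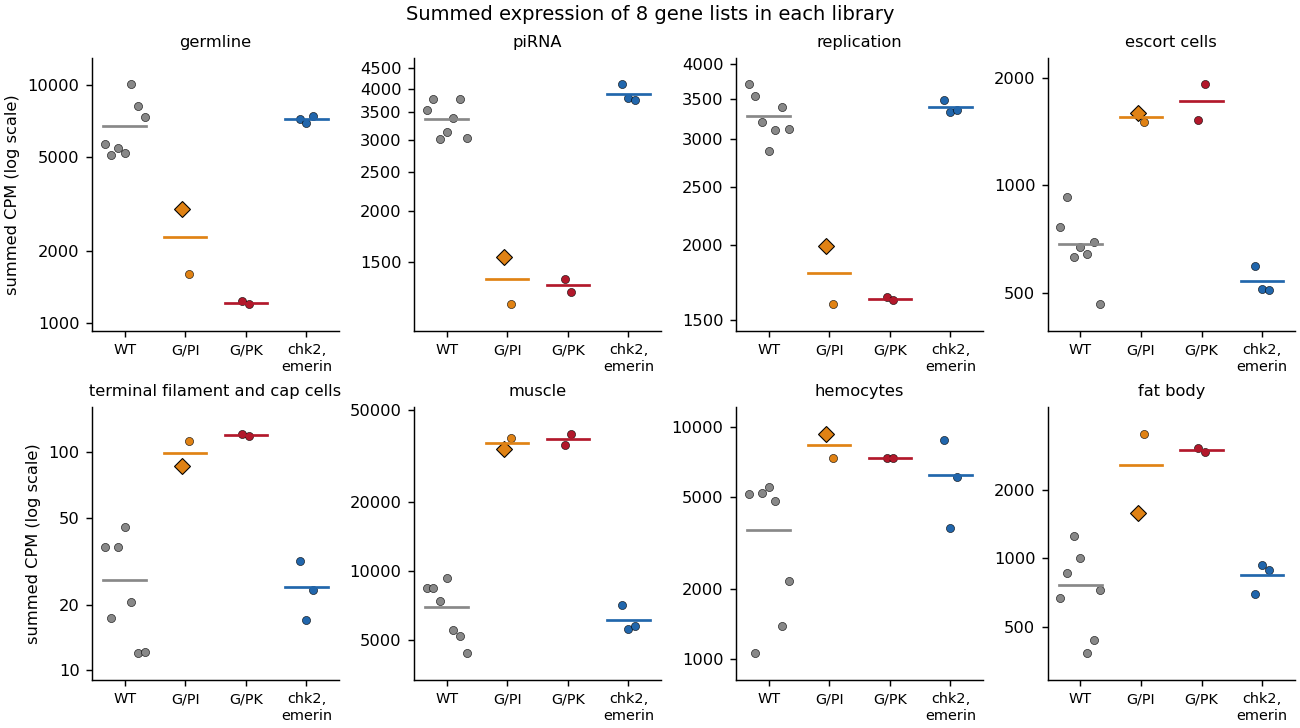
Each panel shows the summed CPM (log axis) of the tested members of 1 gene list in each library; points are libraries, bars are group means, and the diamond is the first G/PI library. Germline, piRNA and replication sums are higher in the double mutants than in every emerin library, muscle, fat body, escort cell and terminal filament and cap cell sums are lower, and hemocyte sums overlap.

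Genes of the germline were higher in the double mutants. Of 17 tested germline genes, 14 were higher and 2 lower, with a median log2 fold change of 2.09, against backgrounds of 22.7% and 26.4%. Their summed level was 1199 to 3004 CPM in emerin mutants, 6970.0 to 7397 CPM in chk2, emerin and 5094 to 10075 CPM in wild type. vas, the Vasa RNA helicase that marks germ cells, was at 186 and 96.3 CPM in G/PI, 126 and 104 CPM in G/PK, and 436, 539 and 565 CPM in chk2, emerin (log2 fold change 2.00 ± 0.19, adjusted p = 6.8e-07), with 419, 489.8 and 604 CPM (lowest, median and highest) in wild type. cup, a translational repressor in nurse cells and oocytes, was at 64.6 and 28.4 CPM in G/PI, 20.2 and 15.0 CPM in G/PK, and 287, 237 and 266 CPM in chk2, emerin (log2 fold change 3.04 ± 0.34, adjusted p = 2.7e-06). The first G/PI library was the highest of the 4 emerin libraries for both genes, yet it stayed below all double mutants. Rbp9, an RNA-binding protein of differentiating cysts, went the other way, at 81.8 and 98.4 CPM in G/PI, 92.3 and 108 CPM in G/PK, and 30.6, 20.6 and 20.8 CPM in chk2, emerin (log2 fold change -1.99 ± 0.21, adjusted p = 1.8e-06). A further pair of members was chosen after the values were seen, because both act in differentiation: bam, the differentiation factor of stem cell daughters, was higher (9.74 and 4.62 CPM in G/PI, 3.87 and 1.10 CPM in G/PK, and 35.6, 27.7 and 24.9 CPM in chk2, emerin), and its partner bgcn was lower (5.82 and 6.53 CPM in G/PI, 20.8 and 21.0 CPM in G/PK, and 3.29, 2.20 and 2.55 CPM). The log2 fold changes were 2.60 ± 0.42 for bam and -2.33 ± 0.51 for bgcn.

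Genes that pattern the oocyte followed the same direction. Of 16 polarity genes tested, 13 were higher and none was lower (median 1.33). orb, which controls translation of localized mRNAs in the oocyte, was at 229 and 80.0 CPM in G/PI, 62.4 and 49.9 CPM in G/PK, and 967, 1051 and 1116 CPM in chk2, emerin (log2 fold change 3.31 ± 0.40, adjusted p = 5.6e-06). bcd, the mRNA of the anterior determinant Bicoid, was at 2.31 to 8.96 CPM in emerin mutants and 30.6 to 34.0 CPM in double mutants (log2 fold change 2.58 ± 0.31, adjusted p = 5.0e-06). fs(1)K10, required for dorsoventral patterning of the egg, was at 29.1 to 35.1 CPM and 106 to 117 CPM (log2 fold change 1.75 ± 0.19, adjusted p = 1.8e-06). The G/PK libraries were the 2 lowest of the 7 for orb and bcd, so both fold changes were larger against G/PK alone, at 4.22 and 3.27.

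Of 22 genes for yolk and eggshell, 6 were higher and 2 lower (none lower without the first double mutant library), and the genes called higher encode components of the vitelline membrane and the receptor for yolk: yl, the vitellogenin receptor, was at 521 and 144 CPM in G/PI, 118 and 83.1 CPM in G/PK, and 3432, 1968 and 3578 CPM in chk2, emerin (log2 fold change 3.79 ± 0.71, adjusted p = 3.3e-04). fs(1)N, a vitelline membrane protein with a role in terminal patterning, was at 81.8 and 28.3 CPM in G/PI, 17.3 and 14.0 CPM in G/PK, and 474, 500.1 and 578 CPM in chk2, emerin (log2 fold change 3.87 ± 0.48, adjusted p = 7.1e-06), and its partner fs(1)M3 was higher by 3.60 ± 0.47. ndl, a protease precursor deposited in the vitelline membrane, was at 27.0 and 8.09 CPM in G/PI, 4.42 and 2.15 CPM in G/PK, and 148, 111 and 123 CPM in chk2, emerin (log2 fold change 3.60 ± 0.57, adjusted p = 8.0e-05). For yl, fs(1)N and ndl the double mutants lay above all emerin libraries, and the wild-type range overlapped the double mutants for ndl and yl only. The late chorion gene Cp19 was lower (log2 fold change -6.63 ± 2.56, adjusted p = 0.042), at 0.978 and 39.99 CPM in G/PI, 15.3 and 0.472 CPM in G/PK, and 0.285, 0 and 0.114 CPM in the double mutants. Its level in emerin mutants spanned a wide range between libraries of 1 background, and the difference did not pass the test against G/PK alone or without any 1 of 5 of the libraries, namely each double mutant, the second G/PI and the first G/PK library (adjusted p up to 0.12). The yolk protein genes Yp1, Yp2 and Yp3 did not pass the test (log2 fold changes -0.49, 0.19 and -1.18).

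The genes of the piRNA pathway, which silences transposons in the germline, were higher almost without exception. Of 28 tested, 27 were higher and none was lower, with a median of 1.52. All 28 were above in every double mutant library, against 27.2% of all genes. vret, a Tudor-domain protein, was among the smallest p of all genes, at 24.0 and 18 CPM in G/PI, 20.3 and 18.02 CPM in G/PK, and 117, 95.5 and 96.8 CPM in chk2, emerin (log2 fold change 2.36 ± 0.12, adjusted p = 9.2e-09). Its wild-type range was 46.4 to 54.96 CPM, below every double mutant library. AGO3, a PIWI protein of the amplification cycle, was at 32.8 to 42.0 CPM in emerin mutants and 140.4 to 185 CPM in double mutants (log2 fold change 2.07 ± 0.18, adjusted p = 3.0e-07), within the wild-type range of 107 to 211 CPM. BoYb, a helicase of the Yb family, was at 9.01 to 16.3 CPM and 48.4 to 58.7 CPM (log2 fold change 2.25 ± 0.20, adjusted p = 3.2e-07). Without the first G/PI library the same number, 27, was called.

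Of 21 meiosis genes, 12 were higher and 1 lower (median 0.92), 12 and 3 without the first G/PI library, and 11 and 3 against G/PK alone. c(3)G, the transverse filament of the synaptonemal complex, was at 23.0 and 16.2 CPM in G/PI, 29.4 and 22.7 CPM in G/PK, and 82.4, 73.0 and 66.8 CPM in chk2, emerin (log2 fold change 1.70 ± 0.21, adjusted p = 7.0e-06). rec, a helicase-like protein required for crossing over, was at 10.1 to 17.1 CPM in emerin mutants and 38.3 to 41 CPM in double mutants (log2 fold change 1.49 ± 0.18, adjusted p = 6.0e-06), and nod, a chromokinesin, at 9.22 to 21.4 CPM and 44.6 to 47.3 CPM (log2 fold change 1.54 ± 0.20, adjusted p = 1.2e-05). All 3 separated the groups. For these as for other germline genes, the summed muscle level was lower in the same libraries.

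**Figure D3:**
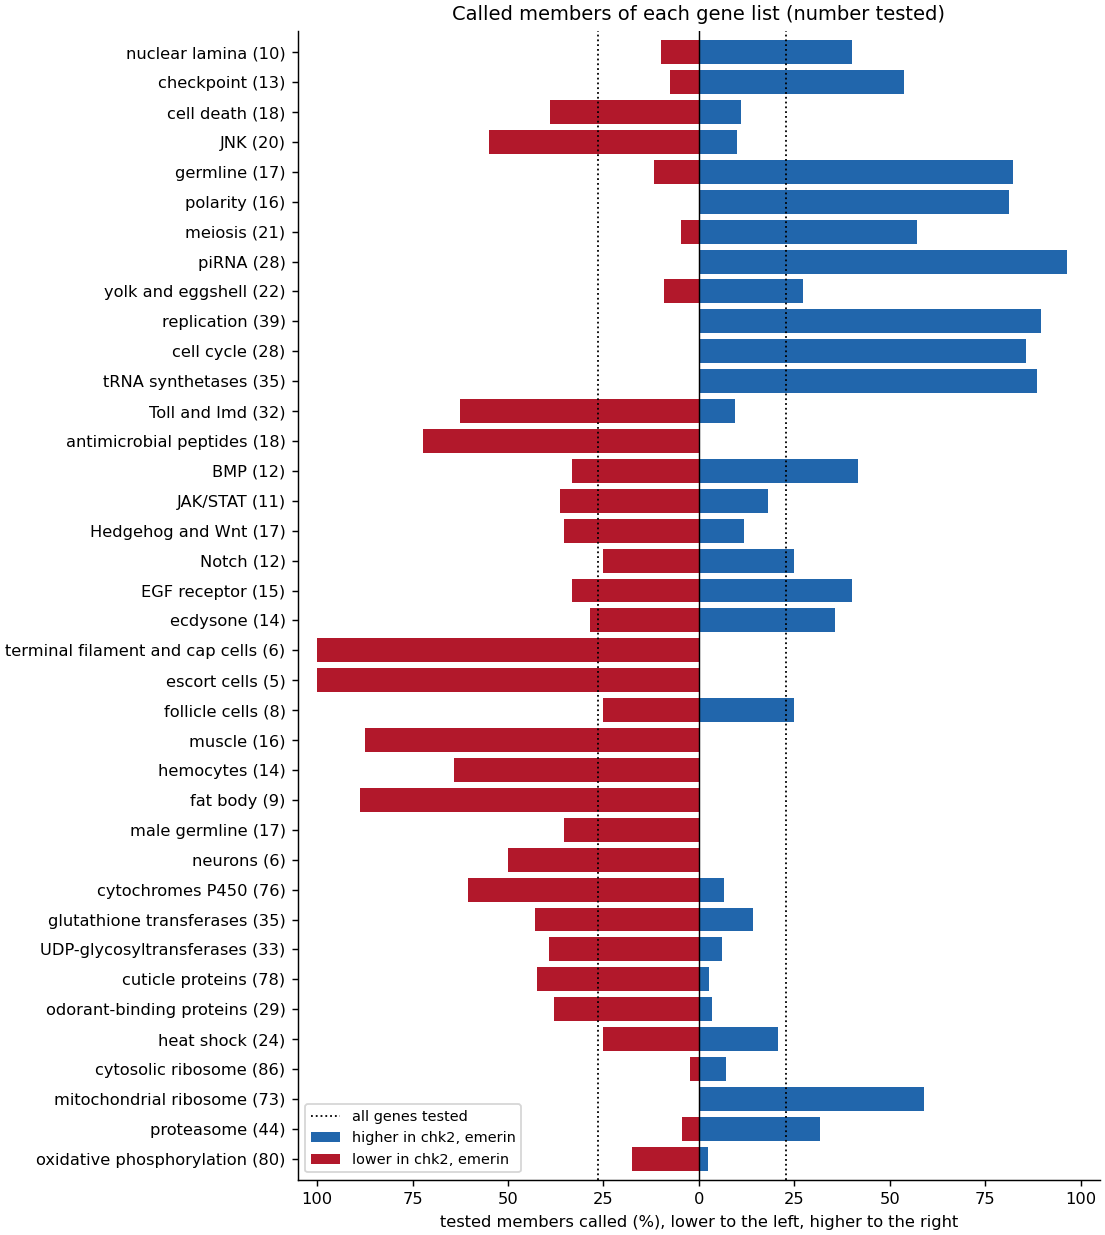
Bars give the percentage of tested members of each gene list that passed the test, higher in chk2, emerin to the right and lower to the left, with the number tested in parentheses; dotted lines mark 22.7% and 26.4%, the percentages over all genes. piRNA, replication, tRNA synthetase and cell cycle genes have no called member on the lower side, and muscle, escort cell and terminal filament and cap cell genes have none on the higher side.

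Genes of proliferation were higher. For DNA replication, 35 of 39 tested genes were higher and none was lower (median 0.95), and the summed level was 1592 to 1993 CPM in emerin mutants, 3328 to 3489.8 CPM in double mutants and 2869 to 3698 CPM in wild type. Mcm10, a replication initiation factor, was at 30.8 and 18.05 CPM in G/PI, 18.7 and 17.6 CPM in G/PK, and 88.0, 73.7 and 77.3 CPM in chk2, emerin (log2 fold change 1.90 ± 0.19, adjusted p = 1.1e-06). Mcm2, a subunit of the replicative helicase, was higher by 1.44 ± 0.17 and Cdc7, the kinase that activates that helicase, by 1.23 ± 0.13. Of 28 cell cycle genes, 24 were higher and none was lower (median 0.94). CycE, the cyclin that drives entry into S phase, was among the smallest p of all genes, at 38.0 and 32.5 CPM in G/PI, 30.9 and 36.2 CPM in G/PK, and 126, 109 and 119 CPM in chk2, emerin (log2 fold change 1.78 ± 0.12, adjusted p = 4.0e-08). dap, the inhibitor of Cyclin E and Cdk2, was also higher, at 30.1 to 43.8 CPM in emerin mutants and 82.2 to 90.5 CPM in double mutants (log2 fold change 1.25 ± 0.14, adjusted p = 2.8e-06). CycB3, a mitotic cyclin, was at 29.2 to 40.4 CPM and 75.1 to 99.3 CPM (log2 fold change 1.35 ± 0.13, adjusted p = 8.7e-07).

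Checkpoint genes other than lok were mostly higher. Of 13 genes, lok included, 7 were higher, and lok was the only member that was lower. mei-41, the fly ATR kinase, was at 16.4 and 15.5 CPM in G/PI, 18.1 and 20.6 CPM in G/PK, and 73.0, 56.4 and 58.2 CPM in chk2, emerin (log2 fold change 1.82 ± 0.23, adjusted p = 9.3e-06). Claspin, an adaptor between ATR and Chk1, was at 26.2 and 27.4 CPM in G/PI, 28.4 and 32.7 CPM in G/PK, and 117, 87.2 and 90.6 CPM in chk2, emerin (log2 fold change 1.78 ± 0.23, adjusted p = 1.3e-05). Every double mutant library was above every emerin library for both genes. Wild type spanned 23.5 to 50.6 CPM for mei-41, below the double mutants, and 60.3 to 117 CPM for Claspin. p53, a target of Chk2, did not pass the test (log2 fold change -0.36, from a mean of 23.1 CPM to 18 CPM).

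The lamina genes were mixed. Of 10 tested, 4 were higher and 1 lower, with a median of 0.03 that became -0.11 with scaling by total count. Without the first double mutant library 2 were higher and 1 lower, and against G/PK alone 2 and 2. MAN1, a LEM-domain protein of the inner nuclear membrane, was at 73.3 and 51.0 CPM in G/PI, 47.0 and 44.6 CPM in G/PK, and 122, 111 and 116 CPM in chk2, emerin (log2 fold change 1.11 ± 0.19, adjusted p = 1.4e-04). klar, a KASH protein that links nuclei to motors, was higher by 1.46 ± 0.27, and Lam, the B-type lamin, was at 176 to 212 CPM in emerin mutants and 325 to 376 CPM in double mutants (log2 fold change 0.77 ± 0.26, adjusted p = 0.021). Lam did not pass the test against G/PK alone (adjusted p = 0.083), against G/PI alone or without the first double mutant library. LamC, the A-type lamin of differentiated cells, was lower, at 251 and 194 CPM in G/PI, 190.3 and 187 CPM in G/PK, and 148, 120.3 and 123 CPM in the double mutants (log2 fold change -0.66 ± 0.15, adjusted p = 0.0014). bocks, the second fly emerin, was at 28.1 to 32.0 CPM and 31.2 to 32.9 CPM (log2 fold change 0.08 ± 0.15, adjusted p = 0.68), and baf at 76.8 to 96.6 CPM and 51.6 to 75.1 CPM (log2 fold change -0.40 ± 0.24, adjusted p = 0.17). Neither passed the test, and the direction turned for bocks with scaling by total count (-0.06) and for baf with the length trend removed (0.06).

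Among genes for protein synthesis, those for tRNA charging and for the mitochondrial ribosome were higher. Of 35 tRNA synthetase genes, 31 were higher and none was lower (median 0.79). IleRS, which charges isoleucine tRNA, was at 207 and 159.6 CPM in G/PI, 158 and 162 CPM in G/PK, and 504, 415 and 454 CPM in chk2, emerin (log2 fold change 1.42 ± 0.16, adjusted p = 3.1e-06). LeuRS was higher by 1.47 ± 0.17 and TrpRS by 1.02 ± 0.12. Of 73 genes of the mitochondrial ribosome, 43 were higher and none was lower (median 0.55), and 71 were higher with the trend with transcript length removed (median 0.97), with mRpS30 at 85.6 to 118 CPM in emerin mutants and 153 to 179 CPM in double mutants (log2 fold change 0.79 ± 0.12, adjusted p = 7.4e-05). mRpL39 and mRpL37 were higher by 0.90 ± 0.14 and 0.83 ± 0.13. Of 86 cytosolic ribosomal protein genes only 6 were higher and 2 lower, and 3 and 1 without the first double mutant library, but this count turned on length: with the length trend removed 55 were higher and none lower. RpL3 and RpLP0 were higher by 0.61 ± 0.17 and 0.74 ± 0.21. Neither passed the test against G/PI alone (adjusted p = 0.063 and 0.11), and RpLP0 lost its call without the first double mutant library (adjusted p = 0.057). RpS15Ab was higher by 0.88 ± 0.17, a value that is uncertain because its near copy RpS15Aa can share reads.

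The proteasome and respiration lists also moved with length. Of 44 proteasome genes 14 were higher and 2 lower, 11 and none without the first double mutant library, 8 and 2 with scaling by total count, and 32 and 1 with the trend removed. Rpn2, Prosalpha6 and Rpn1, subunits of the proteasome, were higher by 0.86 ± 0.12, 0.61 ± 0.14 and 0.54 ± 0.13. Of 80 oxidative phosphorylation genes 2 were higher and 14 lower (median -0.26), 2 and 6 without the first double mutant library, 2 and 4 against G/PK alone, 2 and 24 with scaling by total count, and 24 and 2 with the trend removed (median 0.24). The main shares were 2.5% and 17.5%, below the 22.7% and 26.4% over all genes, and the median was near the -0.25 over all genes. ND-MWFE, a complex I subunit, was lower (-1.04 ± 0.26). Its fold change ran from -1.22 to -0.31 over the alternatives, and 1 of them took its call. ATPsynbeta, a subunit of ATP synthase, was higher by 0.43 ± 0.11. COX7AL2 was lower (-2.96 ± 0.76), from at most 2.54 CPM.

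The somatic niche lists had no member called higher. All 6 genes of terminal filament and cap cells were lower (median -2.09), and 4 were without the first double mutant library. All 5 escort cell genes were lower with and without that library (median -1.30 with it). bab2, a transcription factor needed to form terminal filaments, was at 69.9 and 91.3 CPM in G/PI, 93.6 and 94.0 CPM in G/PK, and 21.0, 10.5 and 16.8 CPM in chk2, emerin (log2 fold change -2.44 ± 0.55, adjusted p = 0.0015). The transcription factors inv and en, which mark the same cells, were at 1.87 to 4.27 CPM and 0.815 to 2.78 CPM in emerin mutants and 0.0489 to 0.285 CPM and 0.152 to 0.245 CPM in double mutants, with log2 fold changes of -3.86 ± 0.63 and -2.96 ± 0.82. fax, expressed in escort cells, was at 1148 and 994 CPM in G/PI, 909 and 1309 CPM in G/PK, and 393, 312 and 302 CPM in chk2, emerin (log2 fold change -1.70 ± 0.26, adjusted p = 5.5e-05). Con, the adhesion protein Connectin (-2.87 ± 0.59), and GstS1, a glutathione transferase (-1.30 ± 0.17), were lower. The sums were 1506 to 1914 CPM against 510.1 to 592 CPM for escort cells and 86.0 to 122 CPM against 17.1 to 31.6 CPM for terminal filament and cap cells.

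Of 8 follicle cell genes 2 were higher and 2 lower, shares near the 22.7% and 26.4% over all genes, and 1 was lower without the first double mutant library. Fas3, an adhesion protein of polar, stalk and early follicle cells, was lower, at 339.8 and 444 CPM in G/PI, 453 and 508 CPM in G/PK, and 99.8, 98.4 and 86.8 CPM in chk2, emerin (log2 fold change -2.20 ± 0.27, adjusted p = 7.1e-06). peb and tj, transcription factors of follicle cells, were higher: peb was at 41.3 and 12.3 CPM in G/PI, 23.6 and 17.97 CPM in G/PK, and 146, 93.9 and 115.3 CPM in the double mutants (log2 fold change 2.31 ± 0.50, adjusted p = 0.0011). tj, which also marks cap and escort cells, was at 42.1 to 111 CPM in emerin mutants and 134 to 305 CPM in double mutants (log2 fold change 1.55 ± 0.39, adjusted p = 0.0034).

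In the BMP pathway, which keeps stem cells from differentiating, 5 of 12 genes were higher and 4 lower, and without the first G/PI library 4 and 6. gbb, a BMP ligand, was at 126 and 131 CPM in G/PI, 124 and 132 CPM in G/PK, and 38.4, 38.3 and 38.5 CPM in chk2, emerin (log2 fold change -1.74 ± 0.27, adjusted p = 6.7e-05). The other ligand dpp was chosen after its values were seen: it was at 86.2 to 130.1 CPM in emerin mutants and 20.7 to 32.0 CPM in double mutants (log2 fold change -1.95 ± 0.42, adjusted p = 0.0012). Dad, an inhibitor that the pathway induces, was lower (-1.63 ± 0.24), and Mad, its transcription factor, was higher by 0.73 ± 0.12. In the JAK/STAT list 2 of 11 were higher and 4 lower, and none was higher without the first double mutant library. The ligand gene upd2 held 164 counts in the 4 emerin libraries and 3 in the 3 double mutant libraries, an emerin to double mutant ratio of 46.9 (exact counting interval 15.8 to 230.0). zfh1, a JAK/STAT target in somatic cells, was at 169 to 419 CPM and 53.7 to 111 CPM (log2 fold change -2.07 ± 0.53, adjusted p = 0.004), and et, a receptor that inhibits the pathway, was lower (-2.78 ± 0.38).

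Among Hedgehog and Wnt genes 2 of 17 were higher and 6 lower. The ligand genes Wnt6 and Wnt2 were lower (-2.82 ± 0.36 and -1.28 ± 0.32), and smo, the Hedgehog transducer, was higher by 0.51 ± 0.13. For Notch the count was 3 and 3 of 12, and 5 and 3 with the length trend removed: N, the receptor, was at 132 to 149.6 CPM in emerin mutants and 298 to 503 CPM in double mutants (log2 fold change 1.45 ± 0.34, adjusted p = 0.0024), Su(H), its DNA-binding partner, was higher by 1.12 ± 0.15, and the ligand gene Ser was lower (-3.94 ± 0.94). The EGF receptor list had 6 higher and 5 lower of 15. spi, a ligand, was lower (-1.14 ± 0.17), while S, which carries the ligand to its cleavage, and pnt, a transcription factor of the pathway, were higher by 2.11 ± 0.25 and 0.97 ± 0.16. For ecdysone signalling 5 of 14 were higher and 4 lower. br, an early response gene, was at 24.3 to 34.8 CPM and 121 to 175 CPM (log2 fold change 2.34 ± 0.40, adjusted p = 1.4e-04), ftz-f1, a nuclear receptor, was higher by 1.48 ± 0.26, and Oatp74D, the ecdysone importer, was lower (-3.01 ± 0.32). Over these 6 signalling lists the share higher was 11.8% to 41.7% and the share lower 25.0% to 36.4%, against backgrounds of 22.7% and 26.4%, so members of each list moved in both directions.

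In the stress pathway of Jun N-terminal kinase (JNK), the ligand and the transcription factors were lower. Of 20 tested genes, 11 were lower and 2 higher (median -0.77). egr, the tumour necrosis factor ligand Eiger, was at 57.2 and 83.6 CPM in G/PI, 85.3 and 91.6 CPM in G/PK, and 13.1, 20.6 and 16.7 CPM in chk2, emerin (log2 fold change -2.24 ± 0.29, adjusted p = 9.8e-06), with 11.9, 18.8 and 26.4 CPM (lowest, median and highest) in wild type. Its level was lowest in the first G/PI library among emerin mutants and still above every double mutant library. kay, the fly Fos, was at 330.1 and 405 CPM in G/PI, 401 and 396 CPM in G/PK, and 119.6, 96.8 and 100.3 CPM in chk2, emerin (log2 fold change -1.86 ± 0.33, adjusted p = 1.9e-04), and its partner Jra, the fly Jun, at 49.5 and 56.0 CPM in G/PI, 64.9 and 53.9 CPM in G/PK, and 22.3, 27.7 and 24.9 CPM in chk2, emerin (log2 fold change -1.17 ± 0.15, adjusted p = 7.6e-06). Both subunits of the transcription factor AP-1 thus fell without overlap of the groups. Wild type spanned 42.9 to 146 CPM for kay and 27.3 to 36.3 CPM for Jra. wnd, an upstream kinase of the pathway, was higher, at 16.5 to 26.1 CPM in emerin mutants and 61.7 to 70.5 CPM in double mutants (log2 fold change 1.69 ± 0.22, adjusted p = 9.9e-06). CHKov1, a gene the paper names for its response to irradiation, was at 12.1 and 18.8 CPM in G/PI, 20.3 and 26.9 CPM in G/PK, and 12.6, 7.88 and 8.98 CPM in the double mutants (log2 fold change -0.99 ± 0.33, adjusted p = 0.021). Its groups overlapped, and its call was lost without double mutant library 2 or 3 or either G/PK library (adjusted p up to 0.092) and against G/PI alone (adjusted p = 0.17).

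Cell death genes gave 2 higher and 7 lower of 18 (median -0.54), and 3 and 4 with the trend with transcript length removed. The shares were 11.1% and 38.9%, against 22.7% and 26.4% over all genes. Buffy, a Bcl-2 family member, was at 22.2 and 17.6 CPM in G/PI, 18.8 and 19.8 CPM in G/PK, and 1.83, 2.49 and 1.75 CPM in chk2, emerin (log2 fold change -3.28 ± 0.36, adjusted p = 2.1e-06). Diap1, the main inhibitor of caspases, was at 197 and 197 CPM in G/PI, 202 and 196 CPM in G/PK, and 108, 111 and 114 CPM in chk2, emerin (log2 fold change -0.84 ± 0.10, adjusted p = 4.1e-06). The effector caspase gene Dcp-1 was higher, at 55.5 and 29.2 CPM in G/PI, 29.7 and 23.4 CPM in G/PK, and 84.9, 104 and 97.6 CPM in chk2, emerin (log2 fold change 1.47 ± 0.22, adjusted p = 4.4e-05). A further pair was chosen after the values were seen. rpr, a caspase activator downstream of p53 in irradiated tissue, was at 1.34 and 2.02 CPM in G/PI, 3.67 and 3.72 CPM in G/PK, and 0.529, 0.196 and 0.190 CPM in the double mutants (log2 fold change -3.11 ± 0.58, adjusted p = 3.4e-04), and Xrp1, a stress-induced transcription factor, at 340.5 and 487 CPM in G/PI, 579 and 563 CPM in G/PK, and 154, 196 and 195 CPM (log2 fold change -1.44 ± 0.27, adjusted p = 3.0e-04). hid and grim, which encode activators like rpr, did not pass the test (log2 fold changes 0.19 and -0.55).

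Immune genes were lower. Of 32 genes of the Toll and Imd pathways 20 were lower and 3 higher (median -0.82). Of 18 antimicrobial peptide genes 13 were lower, or 10 without the first double mutant library, and none was higher. nec, a serpin that restrains Toll activation, was at 72.8 and 86.4 CPM in G/PI, 84.1 and 84.6 CPM in G/PK, and 9.39, 9.34 and 6.43 CPM in chk2, emerin (log2 fold change -3.29 ± 0.26, adjusted p = 1.0e-07), with 11.3 to 23.1 CPM in wild type. modSP, a protease upstream of Toll, was at 29.2 to 40.2 CPM in emerin mutants and 6.24 to 9.15 CPM in double mutants (log2 fold change -2.22 ± 0.18, adjusted p = 1.7e-07). The receptor gene Tl moved the other way, at 48.6 and 33.8 CPM in G/PI, 27.4 and 29.2 CPM in G/PK, and 156, 125 and 141 CPM in chk2, emerin (log2 fold change 2.02 ± 0.20, adjusted p = 1.0e-06). Drs, the antifungal peptide Drosomycin, was at 88.1 and 225 CPM in G/PI, 165 and 287 CPM in G/PK, and 5.82, 4.94 and 8.29 CPM in chk2, emerin (log2 fold change -4.91 ± 0.74, adjusted p = 4.8e-05), with 10.9, 24.1 and 73.5 CPM (lowest, median and highest) in wild type. BomS3, a Bomanin peptide, was lower (-3.91 ± 0.75). CecC held 57 counts in emerin mutants and 1 in double mutants, a ratio of 48.9 (exact counting interval 8.44 to 1967). The peptide list had a median of -3.88, or -2.95 with members at 0 counts in 1 group set to their bound, and its sum was 178 to 532 CPM in emerin mutants, 17.4 to 27.8 CPM in double mutants and 49.98 to 295 CPM in wild type. Hemocytes and fat body express many of these genes, and markers of both were lower in the same libraries. Their part was not tested.

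Families of detoxification had more members lower than higher. Of 76 cytochrome P450 genes 46 were lower and 5 higher (median -1.94). For 35 glutathione transferases the counts were 15 and 5 (10 and 3 without the first double mutant library), and for 33 UDP-glycosyltransferases 13 and 2. The shares lower were 60.5%, 42.9% and 39.4%, against 26.4% over all genes. Cyp6a13 was at 49.9 and 48.3 CPM in G/PI, 53.1 and 54.3 CPM in G/PK, and 9.72, 9.98 and 10.1 CPM in chk2, emerin (log2 fold change -2.37 ± 0.14, adjusted p = 1.3e-08). Cyp318a1 and Cyp28a5 were lower (-2.75 ± 0.20 and -4.65 ± 0.35). GstE12 and GstO3 were lower (-1.64 ± 0.17 and -2.46 ± 0.35), as were Ugt301D1, Ugt36E1 and Ugt36D1 (-2.90 ± 0.30, -1.98 ± 0.21 and -1.20 ± 0.13). Members within each of these families are similar in sequence and can share reads, so single values are less certain than the family count.

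Genes for cuticle and odorant-binding proteins, which are abundant in epidermis and sense organs, had more members lower than higher. Of 78 cuticle genes tested 33 were lower (42.3%, against 26.4% over all genes) and 2 higher, and without the first double mutant library 24 and 1. The cuticle sum was 181 to 409 CPM in emerin mutants and 24.1 to 26.9 CPM in double mutants. Twdlbeta, Cpr66D and Cpr57A were lower (-3.30 ± 0.29, -3.94 ± 0.39 and -3.40 ± 0.48). Of 29 odorant-binding proteins 11 were lower (37.9%) and 1 higher, and without the first double mutant library 8 and 1. Obp99c was at 135 to 223 CPM in emerin mutants and 13.3 to 25.6 CPM in double mutants (log2 fold change -3.12 ± 0.47, adjusted p = 4.6e-05), and Obp83cd and Obp83ef were lower (-4.35 ± 0.61 and -3.36 ± 0.50).

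Of 24 heat shock genes 5 were higher and 6 lower, shares near those over all genes (22.7% and 26.4%). Hsc70-5, the mitochondrial Hsp70, was at 484 and 431 CPM in G/PI, 455 and 435 CPM in G/PK, and 1065, 1119 and 1232 CPM in chk2, emerin (log2 fold change 1.34 ± 0.11, adjusted p = 2.3e-07), above the wild-type range of 598 to 739 CPM. Hsp110, a nucleotide exchange factor for Hsp70, was higher by 1.15 ± 0.15, while Hsc70-1 was lower (-3.12 ± 0.45).

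The 5 smallest p in each direction belonged to genes of varied function. Among the genes that were higher these were vret, l(1)G0020, Naglu, CycE and Chsy. l(1)G0020 was at 94.8 and 74.3 CPM in G/PI, 79.8 and 77.5 CPM in G/PK, and 343, 291 and 324 CPM in chk2, emerin (log2 fold change 1.97 ± 0.13, adjusted p = 2.5e-08). Naglu, a lysosomal glycosidase, was at 14.4 and 11.05 CPM in G/PI, 6.90 and 6.39 CPM in G/PK, and 109.8, 103 and 115.2 CPM in chk2, emerin (log2 fold change 3.49 ± 0.24, adjusted p = 3.8e-08), above the wild-type range of 21.0 to 32.9 CPM, and Chsy, a chondroitin synthase, was higher by 2.00 ± 0.14. Among those that were lower were CG5177, Ncc69, CG9338, alc and CG14196. CG5177 was at 350.1 and 415 CPM in G/PI, 384 and 392 CPM in G/PK, and 50.03, 47.1 and 47.7 CPM in chk2, emerin (log2 fold change -3.00 ± 0.16, adjusted p = 9.2e-09). Ncc69, a sodium, potassium and chloride cotransporter, was lower (-2.40 ± 0.13), as were alc, a subunit of the energy sensor AMPK (-2.41 ± 0.14), CG9338 (-3.64 ± 0.20) and CG14196 (-3.42 ± 0.20).

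Several of the largest fold changes, though not the highest, belonged to genes that also differed between the wild-type strains. Cyp12d1-d, the highest of all, held 1229 counts in the double mutants and 2 in the emerin mutants, a ratio of 716 (exact counting interval 198 to 5916). It was at 0 CPM in all CS, yw, nosgal4 and baf GLKD libraries. For this gene a difference of the double mutant stock and the loss of Chk2 cannot be told apart. Its near copy Cyp12d1-p, which can share reads with it, did not pass the test, at 14.7 to 18.8 CPM in emerin mutants and 14.3 to 17.3 CPM in double mutants. sordd2, the lowest, held 2 counts in double mutants and 1890 in emerin mutants (ratio 811, exact counting interval 224 to 6706), but it was at 0 to 0.813 CPM in CS and 20.8 to 36.0 CPM in yw. Cyp4p2 was at 26.4 and 24.6 CPM in G/PI, 22.3 and 22.8 CPM in G/PK, and 0.203, 0 and 0 CPM in the double mutants, with 0 to 0.305 CPM in CS and 60.2 to 95.8 CPM in yw, and it lost its call without any 1 of the double mutant libraries (adjusted p up to 0.067). Both genes thus separated strains as well as genotypes, and for them strain and Chk2 cannot be told apart. These intervals cover counting error only.

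The other genes at the extremes had lower levels or wide spreads. FBgn0010549, an ABC transporter gene given here by its identifier in the deposited table, was at 8.55 and 3.63 CPM in G/PI, 2.53 and 2.20 CPM in G/PK, and 81.6, 83.2 and 85.7 CPM in chk2, emerin (log2 fold change 4.29 ± 0.50, adjusted p = 4.0e-06), and wild-type CS libraries spanned 56.3 to 68.3 CPM while yw spanned 18 to 31.1 CPM. dpr6, of an immunoglobulin family, was at 7.50 and 3.42 CPM in G/PI, 2.48 and 1.31 CPM in G/PK, and 67.8, 51.4 and 54.3 CPM in chk2, emerin (log2 fold change 3.96 ± 0.43, adjusted p = 2.1e-06). CG31683 was at 0.122 to 2.44 CPM in emerin mutants and 23.8 to 33.9 CPM in double mutants, and the pseudogene CR31054 at 0 to 1.55 CPM and 6.46 to 16.0 CPM, a call that was lost without double mutant library 1 or 3, the second G/PI library or either G/PK library (adjusted p up to 0.094), against G/PK alone (adjusted p = 0.092) and against G/PI alone (adjusted p = 0.17). CG8160 held 3 counts in the double mutants and 1134 in the emerin mutants (ratio 325, exact counting interval 111 to 1576) and at most 0.407 CPM in wild type. CG17350 was at 27.9 and 44.7 CPM in G/PI, 33.9 and 41.02 CPM in G/PK, and 0.447, 0.685 and 0.266 CPM in chk2, emerin (log2 fold change -6.31 ± 0.51, adjusted p = 1.4e-07), with 0.626 to 2.15 CPM in wild type. CG13299 and CG8774 were highest in the first G/PI library, at 176 CPM and 39.1 CPM, and neither passed the test against G/PK alone (adjusted p = 0.090 and 0.12), without that library, or without the second double mutant library. CG13299 was also lost without double mutant library 3 and CG8774 without the first.

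The contrast was set beside one that shares no library with it. In baf GLKD, BAF is knocked down in the germline only, under the nosgal4 driver, and nosgal4 alone is its control. Of 12762 genes, 1057 were higher in nosgal4 than in baf GLKD (8.28%) and 1692 were lower (13.3%). The split depended on scaling, and with scaling by total count 444 were higher and 1819 lower. Of the 1057 genes called higher with TMM scaling, 1018 were also higher in chk2, emerin than in emerin. That is 96.3% of the baf list and 35.1% of the emerin list. Of the 1692 called lower with TMM scaling 1544 were shared, 91.3% of the baf list and 45.9% of the emerin list. Called genes of opposite direction numbered 3 in each sense. Across all genes, which are not independent replicates, Pearson's r between the fold changes of both contrasts was 0.63 and Spearman's rho was 0.74. Both sets of ovaries differ in tissue markers as well: 12 of 16 muscle genes and 8 of 9 fat body genes were lower in nosgal4 than in baf GLKD.

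**Figure D4:**
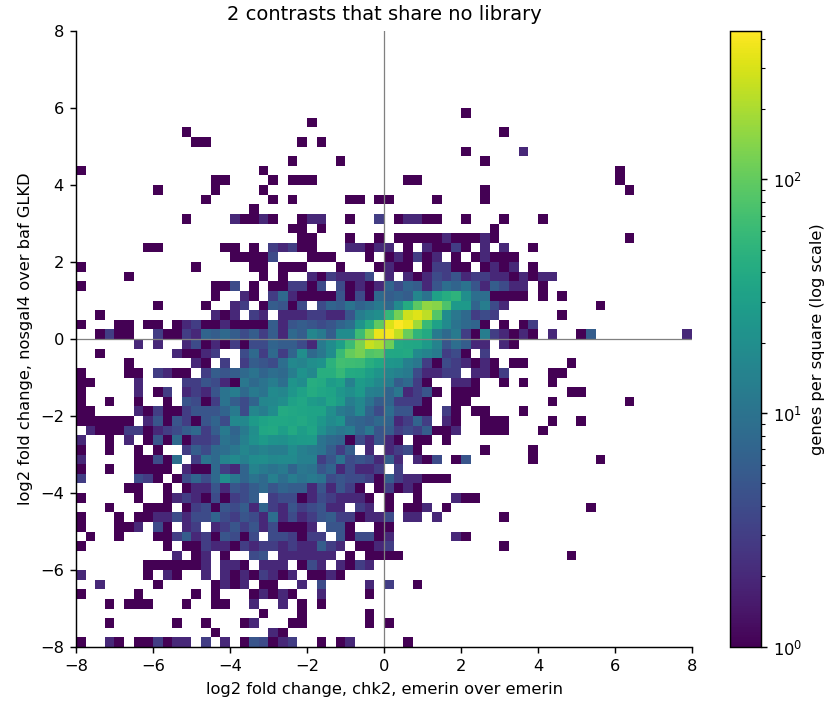
Each square counts genes (colour, log scale) by their log2 fold change in chk2, emerin over emerin (horizontal) and in nosgal4 over baf GLKD (vertical); the contrasts share no library, and values beyond 8 in either direction are drawn at the edge. Most genes lie along a rising diagonal, with a Spearman correlation of 0.74 across genes.

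Some members behaved differently in the 2 contrasts. lok was lower in the double mutants and higher in nosgal4 than in baf GLKD, by 0.92 (adjusted p = 0.025). Naglu was higher by 3.49 in chk2, emerin and differed by -0.05 in the baf contrast (adjusted p = 0.93). GstS1 was at -1.30 in the first contrast and -0.19 in the baf contrast (adjusted p = 0.53), and modSP at -2.22 and -0.49 (adjusted p = 0.12). The difference between contrasts was not tested for these genes.

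Genes were called on every chromosome arm. The share higher was between 20.2% (84 genes of chromosome 4) and 24.3% (2072 genes of the X), and the share lower between 22.2% (X) and 29.6% (2R). The surroundings of lok on 2L, where the chk2 alleles lie, were examined because the mutant chromosomes differ there. Among the 10 tested genes on each side, 4 were higher and 10 lower, with a median of -1.49. Over the 2414 tested genes of 2L, 21.2% were higher and 26.6% lower, with a median of -0.34. The measured fold changes ran from -3.53 (CG16772) to 1.37, and sNPF, with 23 counts in emerin mutants and none in double mutants, was at least 6.58-fold lower, at a floor of 3 counts over the group. The nearest neighbours were barr, a condensin subunit, which did not pass the test (0.13, adjusted p = 0.62), and vls, a methylosome component, which was higher by 1.04 (adjusted p = 1.4e-04). vls starts at 20064261, before the annotated end of lok, so reads of the overlap cannot be assigned with certainty. CG43861, from 19968684 to 20017282, was lower (-3.11), and so was bwa, a ceramidase gene (-1.62). Around Ote on 2R, 3 of 20 neighbours were higher and 3 lower (median -0.44), against 21.9% and 29.6% over 2R (median -0.33). Chromosome differences between the stocks and the loss of Chk2 cannot be told apart for genes next to lok.

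The share of genes called higher rose with transcript length. In the shortest quintile of genes (75 to 902 bases, mean transcript length weighted by TPM), 7.04% were higher and 25.6% lower. In the longest quintile (3148 to 48733 bases) 35.5% were higher and 22.9% lower. The median fold change went from -0.83 to 0.22 over the quintiles, and from -0.47 to 0.18 against G/PK alone. The libraries themselves showed this trend: relative to the wild-type mean the longest quintile was 0.17 to 0.41 higher in the double mutants and -0.04 to 0.10 in the emerin mutants, with the first double mutant library the highest. Some wild-type libraries showed it too, from -0.17 to 0.25. With the trend removed from each library, 3775 genes were higher and 3027 lower, and the medians of the shortest and longest quintiles were -0.32 and 0.11. The part of RNA quality or library preparation in this was not tested.

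**Figure D5:**
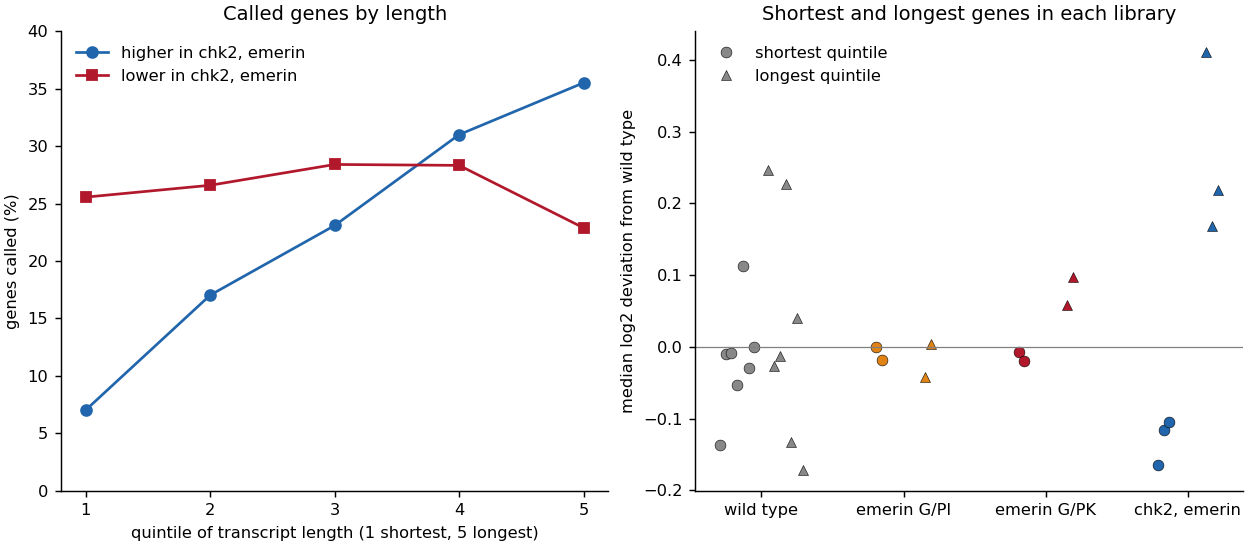
Left, the percentage of genes called higher and lower in chk2, emerin (vertical axis) in each quintile of transcript length (horizontal axis); the share higher goes from 7.04% to 35.5%. Right, the median log2 deviation from the wild-type mean of the shortest quintile (circles) and longest quintile (triangles) in each library by group; the longest quintile lies between 0.17 and 0.41 in the 3 double mutant libraries.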

How the data were processed

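Poly(A)-selected RNA from ovaries of newly eclosed females was sequenced. Per the submitters' processing notes the authors trimmed reads with Trim Galore 0.6.6 and estimated transcript abundance with kallisto 0.46.1, on the BDGP6.32 (dm6) transcriptome by the paper's methods, and summed transcripts to genes with tximeta. For 14237 genes the deposited table gives these estimated counts as whole numbers. A deposited table per library gives TPM, estimated counts and lengths of its transcripts. These were used for lok isoforms and for TPM-weighted gene lengths (14182 genes). No column was without a sample.

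Genes with at least 10 counts over the 18 libraries (12762; 1475 left out) were fitted in edgeR 4.0.16 (R 4.3.3, limma 3.58.1) with TMM scaling, 1 mean per group, all libraries in 1 quasi-likelihood fit, and Benjamini-Hochberg adjustment over all genes tested, with calls at an adjusted p under 0.05. Emerin was the mean of the 4 libraries of both allele combinations. The wild-type group was 1 mean of the CS and yw libraries together. Differences between CS and yw therefore entered the spread estimated for each gene, and with it the SE and adjusted p. CPM were computed from the counts with TMM scaling. The SE was derived from the test, as the absolute log2 fold change divided by the square root of its F statistic. Scripts were tested on simulated data. The count floor was 3 and intervals were exact, at the 0.95 level, and cover counting error only. Tables were handled with numpy 2.4.6, pandas 2.3.3 and scipy 1.17.1, and plotted with matplotlib 3.10.9. Positions came from the BDGP6.54 annotation (14194 genes).

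The genes and the 38 lists were chosen with earlier results of these data known. Named by rule were lok, Ote, bocks, MAN1, baf, Lam, Jra, kay and CHKov1; the 8 highest and 8 lowest fold changes among called genes with a mean of at least 10 CPM in the higher group and no overlap of the 7 libraries; the 5 smallest adjusted p in each direction; and the 3 smallest in each list. Other genes, such as bam, bgcn, rpr and Xrp1, were chosen after their values were seen. Of the list entries, 1098 matched and 7 (nos, lat, RPA2, RPA3, Med, Dl and phm) were not analysed here.

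Alternatives were DESeq2 1.42.0, its size factors, total-count scaling, edgeR's own expression filter, no filter, the 7 libraries alone, each allele combination alone, the mean of both, a replicate block, removal of a trend with gene length (lowess span 0.3), a fold of at least 2, an adjusted p under 0.01, and each library left out in turn. Nothing in the labels says that libraries came from separate cultures of flies, so p-values measure the spread between these samples. The labels give 25 °C for baf GLKD, while the paper gives it for all crosses.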

Additional observations from a re-analysis of the deposited data

Results flagged for a closer look

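In 23 of the 140 named genes, 1 of the 4 emerin libraries lay apart from the other 3 by Dixon's test at the 95% level. Chance flags about 1 in 20 groups. In 21 of the 23 the library apart was the first G/PI library. It held the highest CPM of the emerin libraries for lok (121), the vitellogenin receptor gene yl (521), Syt1 (720), CG8774 (39.1), LamC (251), orb (229), BoYb (16.3), Mcm10 (30.8), Mcm2 (86.7), IleRS (207), LeuRS (178), TrpRS (63.4), S (62.6), Mst98Ca (5.01), ProtB (2.00), Hsp110 (608), RpL3 (4611) and RpLP0 (3938). It held the lowest CPM for kay (330.1), nec (72.8) and bab2 (69.9). The second G/PI library was highest for Cyp12d1-d (0.104) and Ugt301D1 (76.3).

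The emerin gene Ote was 1.63 higher on the log2 scale in G/PI than in G/PK (adjusted p = 0.024 in edgeR's quasi-likelihood test).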

How the results depend on the processing

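Of 2519 comparisons of the 140 named genes with alternatives, 2457 kept the call and the direction, and 122 of the genes did so in every alternative. With a fold change of at least 2 required as well, 1337 genes were higher and 2727 lower in chk2, emerin than in emerin. With scaling by total count 444 genes were higher in nosgal4 than in baf GLKD, and 1819 were lower. The log2 fold change of Ote turned to 0.61 against G/PK alone and to 0.12 without the first G/PI library (-0.64 to 0.12 with each library left out in turn), that of bocks to -0.064 with scaling by total count, and that of baf to 0.058 with the length trend removed. The cause was not tested.

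Leaving out each library in turn gave 2511 to 2936 genes higher and 2705 to 3301 lower in chk2, emerin than in emerin, and 1946 to 2392 and 2066 to 2600 against G/PK alone. DESeq2 gave 2881 and 3676, an adjusted p under 0.01 gave 2234 and 2363, and a fit of the compared libraries only gave 3380 and 3533. With scaling by total count the counts were 2405 and 3804, and with the length trend removed 3775 and 3027. Libraries with the same replicate number in their titles had correlations from -0.03 to 0.06. This check cannot decide whether samples were paired. A pair of libraries deviates from its mean in mirror image, and the deposited columns number the G/PK libraries differently from the titles. With a replicate block 2743 genes were higher and 2769 lower. It took the call from ATPsynbeta, CHKov1, Cp19, Mst98Ca, ProtB and RpL3 among the named genes.

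Limits: each group has 2 to 4 libraries, whole ovaries mix cell types, and no chk2 single mutant library was used here. With 18138657 to 28372959 counts per library, genes at a few counts, such as some testis and cuticle genes, have fold changes set largely by the model.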
